A study of Mus musculus with 23 samples.

Results

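The genes described here are 10 genes that mark the epithelium of the choroid plexus, followed across RNA-seq libraries of transferred mouse cells recovered from brain and blood. They are Ttr, Enpp2, Otx2, Kl, Prlr, Folr1, Kcne2, Slc4a5, Clic6 and Igfbp2. They were taken by name, with earlier results of these data known, and all 10 were found among the 19945 genes of the deposited table.

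The choroid plexus hangs in the ventricles of the brain and is a leaf of ciliated epithelium over a core of vessels and stroma. Its epithelial cells make most of the cerebrospinal fluid by moving sodium, chloride, bicarbonate and water from blood to ventricle, and tight junctions between them close the barrier between blood and fluid. The same cells secrete carrier proteins and growth factor binding proteins into the fluid and take up vitamins and hormones from the blood. In the adult brain Ttr, Kl and Otx2 are textbook markers of this epithelium. Other members are shared with other cells: Enpp2 is also made by oligodendrocytes, and Igfbp2 by astrocytes and leptomeningeal cells.

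The study asked how group 2 innate lymphoid cells (ILC2s, lymphocytes without antigen receptors that make type 2 cytokines) change after transfer into mice with a stroke. Donors were male mice 8 to 10 weeks old, transgenic and wild type, on B6.Cg-Tg(CAG-GFP)Smoc, a line in which the broadly active CAG promoter drives green fluorescent protein. They received IL-33 into the peritoneum every 2 days for 7 days. From their spleen and marrow, CD25+ cells that lacked Ter119, CD45R/B220, CD3ε, Gr1 and CD11b were separated magnetically. These were cultured for 14 days with IL-7, IL-2, IL-33 and IL-15. They were then sorted by flow cytometry as CD45+Lin-ST2+KLRG1+CD127+ and given into a vein 6 hours after MCAO (occlusion of the middle cerebral artery). The 4 groups share this donor line and culture. They are brain day 5, blood day 5 and blood day 1 cells, with 6 libraries each, and 5 libraries of cells taken straight from culture as a baseline. The sources used here do not state whether baseline cells had passed the final sort, how cells were gated on recovery, whether replicates were separate animals, or how transgenic and wild-type donors fell into libraries, so p-values measure only the spread between these libraries.

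Each group was split over 2 labelled batches. Libraries held 11.6 to 58.1 M reads (M, 1e6 reads) in brain, 12.1 to 44.0 M in blood day 5, 14.7 to 35.9 M in blood day 1 and 12.8 to 36.8 M in baseline, with 27.8 to 58.1 M in batch 2 and 11.6 to 16.9 M in batch 1. Brain replicate 2, blood day 1 replicates 2 and 6 and baseline replicate 5 correlated less with their own group than its other libraries did (mean r across genes 0.870, 0.831, 0.864 and 0.884, against 0.885 or more in every other library). Of the markers of the labelled cell type, Klrg1, part of the sort gate, had 1.87 to 23.4 normalized counts in brain libraries, against 4367 to 22019.9 in blood day 5 libraries. Gata3, the transcription factor that ILC2s depend on, had 0 to 22.2 in brain libraries, against 1270.0 to 1895 in blood day 5 libraries. The 10 ILC2 markers in the table summed to 0.0236 to 0.0442% of a brain library and to 0.263 to 0.374% of a blood day 5 library. Rora and Il1rl1 were not called in that comparison (limma adjusted p 0.904 and 0.225). Baseline libraries held these markers unevenly too. Klrg1 was at 15664 to 50175 there and the summed share at 0.294 to 0.538%, yet Il1rl1, which encodes ST2 of the sort gate, was at 0 in 4 of 5 baseline libraries and 5.42 in the other, against 3.41 to 135.5 in brain libraries. Il7r (CD127) was at 35.8 to 142 in brain libraries and 0 to 75.8 in baseline libraries. Over baseline, 3 of 9 tested ILC2 genes were called higher in brain cells (Il7r, Rora and Il1rl1) and 6 lower. Since libraries are bulk RNA, fewer cells of a type and less RNA per cell cannot be told apart.

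The promoters of the members were read for 3 short motifs, and 4 of those that hold one are printed. RefSeq promoters on GRCm38.p6, each running from 250 bases before to 50 bases after an annotated start, matched 6 of the 10 members and gave 13 sequences. Both strands were searched for TAATCC (the core bound by Otx proteins), TATAAA (the TATA box) and GGGCGG (the GC box). No match overlaps another in the printed sequences. Capitals mark the matches, and the sequences are 5′ to 3′ on the strand of the gene.
Otx2, start 3, chr14:48665060-48665359, minus strand: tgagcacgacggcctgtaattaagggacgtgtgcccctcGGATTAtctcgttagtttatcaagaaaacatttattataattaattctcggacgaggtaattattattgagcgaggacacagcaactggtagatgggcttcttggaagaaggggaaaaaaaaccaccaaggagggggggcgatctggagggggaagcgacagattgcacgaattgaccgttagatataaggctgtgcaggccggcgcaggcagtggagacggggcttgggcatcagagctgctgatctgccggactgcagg
Kl, chr5:150952357-150952656, plus strand: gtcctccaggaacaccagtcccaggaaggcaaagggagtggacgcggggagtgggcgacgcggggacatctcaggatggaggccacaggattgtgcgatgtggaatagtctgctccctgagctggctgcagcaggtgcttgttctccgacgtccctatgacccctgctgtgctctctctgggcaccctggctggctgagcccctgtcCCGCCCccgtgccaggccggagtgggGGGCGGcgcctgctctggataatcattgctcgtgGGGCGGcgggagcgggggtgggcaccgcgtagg
Slc4a5, chr6:83237125-83237424, plus strand: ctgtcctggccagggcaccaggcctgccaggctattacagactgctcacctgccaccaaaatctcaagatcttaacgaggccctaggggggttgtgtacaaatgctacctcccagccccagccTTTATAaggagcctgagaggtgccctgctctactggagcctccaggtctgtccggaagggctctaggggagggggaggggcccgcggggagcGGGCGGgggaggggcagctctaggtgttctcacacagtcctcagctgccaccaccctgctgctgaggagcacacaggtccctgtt
Kcne2, start 1, chr16:92292139-92292438, plus strand: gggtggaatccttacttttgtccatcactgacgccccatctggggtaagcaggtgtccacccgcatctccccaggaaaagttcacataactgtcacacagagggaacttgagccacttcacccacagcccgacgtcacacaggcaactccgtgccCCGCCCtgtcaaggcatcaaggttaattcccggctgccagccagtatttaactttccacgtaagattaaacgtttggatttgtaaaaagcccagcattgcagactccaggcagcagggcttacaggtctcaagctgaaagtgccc
The Otx core was found in 1 of the 13 member promoters, at -211 of Otx2 start 3 on the opposite strand, and in 7.06% of 32851 promoters of the same length. The TATA box was found in 2 of 13, at -127 of Slc4a5 and at -192 of another Otx2 start, and in 13.6% of all promoters. The GC box was found in 4 of 13, at -43, -17 and 17 of Kl, at -35 of Slc4a5, at -95 of Kcne2 and in an Igfbp2 promoter, and in 35.7% of all promoters. A match is a description of letters and not a bound site.

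Reads of the choroid plexus genes came almost wholly from brain libraries. For each of the 10 genes the lowest brain library lay above the highest library of every other group. The share of all genes that lie apart in this way was not counted, so this describes the members only. Values below are the authors' normalized counts (reads divided by one size factor per library). Differences are log2 differences of log2(value + 1) from limma, given with their standard error (SE), and adjusted p-values are Benjamini-Hochberg values over the 15268 genes that reached 10 in 5 or more libraries. A gene is said to rise or fall where that value is under 0.05.

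The secreted proteins Ttr and Enpp2 had the highest brain medians of the members and are given first, with Igfbp2. Transthyretin (Ttr) carries thyroxine in the cerebrospinal fluid and, together with retinol-binding protein, retinol. Ttr had a lowest value of 207774, a median of 593328 and a highest of 1000727 in brain libraries, against 0, 50.3 and 2568 in blood day 5 libraries and 0, 121 and 30199 in blood day 1 libraries. It had 0, 0, 0, 203 and 261 in the 5 baseline libraries. The groups did not overlap, and in blood day 1 a single library, replicate 2, held 9754 of 10630 Ttr reads. Ttr rose in brain cells by 13.05 ± 2.15 over blood day 5 (adjusted p 2.09e-05), 12.69 over blood day 1 (adjusted p 3.02e-05) and 15.57 over baseline (adjusted p 3.47e-06).

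Autotaxin (Enpp2, chr15:54838901-54952892) is a secreted phosphodiesterase that makes lysophosphatidic acid. Enpp2 had a lowest value of 136805, a median of 291432 and a highest of 1200309.9 in brain libraries, against 8.27, 102 and 578 in blood day 5 libraries and 0, 148 and 30394 in blood day 1 libraries. It had 7.22, 1.83, 4.95, 184 and 66.5 in baseline libraries. Brain libraries again stood apart, and every baseline library held some reads, the most in batch 2. Enpp2 rose in brain cells by 11.88 ± 1.67 over blood day 5 (adjusted p 2.57e-06), 11.27 over blood day 1 (adjusted p 5.3e-06) and 14.20 over baseline (adjusted p 3.55e-07).

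Igfbp2 (chr1:72824503-72852474) binds insulin-like growth factors in the cerebrospinal fluid. Igfbp2 had a lowest value of 12734, a median of 19387 and a highest of 43312 in brain libraries, against 8.27, 52.3 and 138 in blood day 5 libraries and 0, 16.1 and 594 in blood day 1 libraries. It had 0, 0, 0, 21.0 and 26.6 in baseline libraries. Brain libraries did not overlap the rest, while the lowest value of each other group was under 10. Igfbp2 rose in brain cells by 8.86 ± 1.18 over blood day 5 (adjusted p 1.17e-06), 10.35 over blood day 1 (adjusted p 1.21e-07) and 12.50 over baseline (adjusted p 1.2e-08).

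Next come the receptors and the hormone co-receptor. Klotho (Kl, chr5:150952607-150993817) is a membrane protein that serves as co-receptor for FGF23, and its shed outer part circulates in the cerebrospinal fluid. Kl had a lowest value of 1407, a median of 4123 and a highest of 23191 in brain libraries, against 0, 0 and 21.1 in blood day 5 libraries and 0, 3.86 and 136 in blood day 1 libraries. It was at 0, 0, 0, 0 and 2.95 in baseline libraries. Outside brain, replicate 5 of blood day 5 and replicate 2 of blood day 1 held the highest value of their group. Kl rose in brain cells by 11.77 ± 1.08 over blood day 5 (adjusted p 3.78e-09), 10.07 over blood day 1 (adjusted p 4.7e-08) and 12.17 over baseline (adjusted p 4.47e-09).

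The prolactin receptor (Prlr, chr15:10177238-10349180) signals through JAK2 and STAT5 and has long been known from the rodent choroid plexus. Prlr had a lowest value of 3453, a median of 10498 and a highest of 28242 in brain libraries, against 0, 23.7 and 30.0 in blood day 5 libraries and 0, 37.2 and 1294 in blood day 1 libraries. No baseline library held a Prlr read. Brain libraries lay above the others, and 5 of 6 libraries at each blood time reached 10. Prlr rose in brain cells by 9.34 ± 1.17 over blood day 5 (adjusted p 5e-07), 7.98 over blood day 1 (adjusted p 4.59e-06) and 13.28 over baseline (adjusted p 4.12e-09).

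Folate receptor alpha (Folr1, chr7:101858331-101870788) moves methylfolate across the epithelium into the fluid. Folr1 had a lowest value of 5079, a median of 8318 and a highest of 35875 in brain libraries, against 0, 4.30 and 151 in blood day 5 libraries and 0, 5.90 and 508 in blood day 1 libraries. It had 0, 0, 1.65, 12.9 and 12.6 in baseline libraries. The brain range did not touch the others, and the baseline values above 10 were both in batch 2. Folr1 rose in brain cells by 10.59 ± 1.39 over blood day 5 (adjusted p 9.67e-07), 10.43 over blood day 1 (adjusted p 1.21e-06) and 11.51 over baseline (adjusted p 5.2e-07).

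The ion transport genes came next. Kcne2 (chr16:92292389-92298129) is a small subunit that tunes potassium channels in the apical membrane. Kcne2 had a lowest value of 1386, a median of 3348 and a highest of 9422 in brain libraries, against 0, 0 and 8.26 in blood day 5 libraries and 0, 1.5 and 498 in blood day 1 libraries. It had 0, 0, 0, 3.39 and 0 in baseline libraries. Apart from blood day 1 replicate 2, no library outside brain reached 10. Kcne2 rose in brain cells by 11.08 ± 1.14 over blood day 5 (adjusted p 2.36e-08), 9.26 over blood day 1 (adjusted p 3.63e-07) and 11.26 over baseline (adjusted p 3.51e-08).

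Slc4a5 (chr6:83219828-83304945) is the sodium bicarbonate cotransporter NBCe2 of the apical membrane. Slc4a5 had a lowest value of 57.9, a median of 1732 and a highest of 5913 in brain libraries, against 0, 0 and 3.21 in blood day 5 libraries and 0, 0 and 1.86 in blood day 1 libraries. It had 37.9, 3.65, 16.5, 0 and 0 in baseline libraries. Slc4a5 was the member whose brain minimum, in replicate 2, came closest to another group, and its highest value outside brain was in baseline. Slc4a5 rose in brain cells by 9.93 ± 1.00 over blood day 5 (adjusted p 1.71e-08), 10.02 over blood day 1 (adjusted p 1.51e-08) and 7.99 over baseline (adjusted p 8.52e-07).

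Clic6 (chr16:92485736-92541243) belongs to the chloride intracellular channel family. Clic6 had a lowest value of 5978, a median of 15527 and a highest of 19945 in brain libraries, against 0, 3.64 and 128 in blood day 5 libraries and 0, 7.11 and 307 in blood day 1 libraries. No baseline library held a Clic6 read. Brain values were the most even of the 10 members relative to their mean, with 14139 ± 5808 (SD, n = 6). Clic6 rose in brain cells by 11.37 ± 1.29 over blood day 5 (adjusted p 1.15e-07), 10.91 over blood day 1 (adjusted p 2.12e-07) and 13.69 over baseline (adjusted p 1.23e-08).

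Otx2 (chr14:48657677-48673819) is the homeodomain transcription factor that specifies the choroid plexus and keeps its gene program in the adult. Otx2 had a lowest value of 4649, a median of 19017 and a highest of 137158 in brain libraries, against no read in any blood day 5 library and 0, 0 and 118 in blood day 1 libraries. No baseline library held an Otx2 read, and the blood day 1 value came from replicate 2 alone. Otx2 rose in brain cells by 14.14 ± 1.06 over blood day 5 (adjusted p 1.27e-10), 12.99 over blood day 1 (adjusted p 5.44e-10) and 14.10 over baseline (adjusted p 2.97e-10). Counting 3 reads per library for the groups without a read, the ratio of means was at least 14165 over blood day 5 (at least 57145 in batch 2 and 1022 in batch 1) and at least 10652 over baseline (at least 38078 in batch 2 and 896 in batch 1).

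**Figure D1:**
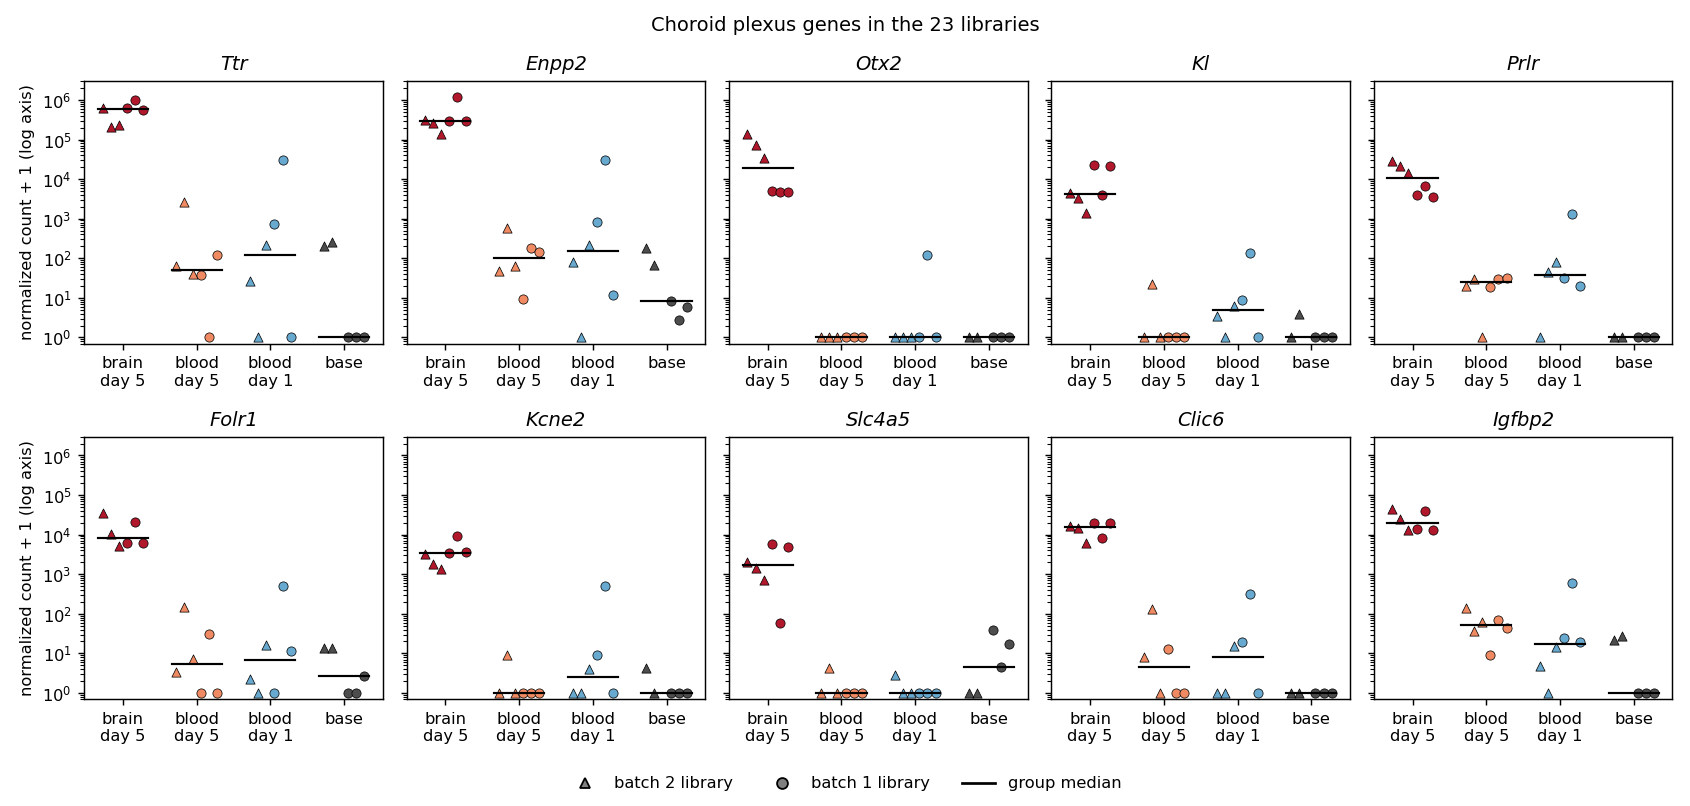
Normalized counts of the 10 members in each of the 23 libraries, on a log scale of value + 1, with brain day 5, blood day 5, blood day 1 and baseline from left to right. Triangles are batch 2 and circles batch 1 libraries, and lines are group medians. In every panel the 6 brain points lie above all other points.

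Called higher in brain cells were 10 of 10 members over blood day 5, where 33.6% of all genes tested were called higher, 14.3% lower and 47.9% in either direction. The count was also 10 of 10 over blood day 1 (37.3% of all genes higher, 14.1% lower, 51.4% either) and 10 of 10 over baseline (37.5% higher, 11.7% lower, 49.2% either). The median log2 difference of the members was 11.23 over blood day 5, 10.39 over blood day 1 and 12.89 over baseline, beside 0.47, 0.77 and 0.67 for all genes tested. Otx2, Kl, Kcne2 and Slc4a5 passed the filter on low values only through brain libraries, so these 4 had to differ and their calls are no support. Scaling every library to the same total moved the median of all genes to 0.08, 0.61 and 0.62, and the members' medians to 10.996, 10.34 and 12.80. The share of calls that were higher, over all genes, was 70.1% over blood day 5, 72.5% over blood day 1 and 76.3% over baseline in limma. In edgeR it was 71.7% over blood day 5 with the deposited size factors and 59.5% with TMM scaling (69.8 and 57.4% over blood day 1, 74.2 and 63.5% over baseline), while the 10 members stayed called higher.

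Ratios of group means put the members on one footing. Over blood day 5, the ratio ran from 411 for Igfbp2, 445 for Folr1, 576 for Clic6 and 623 for Prlr, through 1153 for Ttr and 2466 for Enpp2, to 2755 for Kl, 2774 for Kcne2 and 4659 for Slc4a5. Replicate 5 of blood day 5 weighed on these ratios. Without it they were 10683 for Ttr, 4784 for Enpp2, 3748 for Clic6, 1852 for Folr1, 675 for Prlr and 381 for Igfbp2, and Kl, Kcne2 and Slc4a5 had no read in the remaining 5 libraries. Over blood day 1 the ratio was 45.0 for Kcne2, 52.9 for Prlr, 79.3 for Enpp2 and 104 for Ttr, and without its replicate 2 it was 1759.8, 372, 1829 and 2837 for the same genes. For Slc4a5 blood day 1 held too few reads for a mean, and the ratio of read rates was 4258 (95% exact interval 1457 to 20651, counting error only). Over baseline the ratio was 215 for Slc4a5, 5843 for Ttr and 7887 for Enpp2. Single baseline libraries weighed on these as well, since the ratio was 495 for Slc4a5 without replicate 1, 10670 for Ttr without replicate 5 and 20706 for Enpp2 without replicate 4. The ratio for Kl, 16398, rested on 4 reads in baseline replicate 5, and the other 4 baseline libraries had no Kl read.

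Per length, Ttr and Enpp2 stood at the top of the brain order. In CPM (reads per 1e6 reads of the library) per kilobase of exon, the mean brain level was 18327 for Ttr, 2782 for Enpp2, 518 for Igfbp2, 398 for Otx2, 238 for Folr1, 152 for Clic6, 85.0 for Kcne2, 45.9 for Kl, 33.1 for Prlr and 18.9 for Slc4a5. The ranges of every pair of neighbours in this order overlapped over the 6 brain libraries. Within libraries Ttr lay above Enpp2 in 6 of 6 and Enpp2 above Igfbp2 in 6 of 6, whereas Igfbp2 lay above Otx2 in 3 of 6, Otx2 above Folr1 in 3 of 6 and Kl above Prlr in 2 of 6, so those places in the order were not fixed. The 10 genes took 4.28 ± 2.19% of the normalized total of a brain library (SD, n = 6, range 1.55 to 7.95%), against 0.00442 ± 0.00785% in blood day 5, 0.0255 ± 0.0566% in blood day 1 and 0.000676 ± 0.000794% in baseline (n = 5). Without Ttr and Enpp2 the brain share was 0.497 ± 0.294%. By read number Ttr ranked between 1 and 7 among all genes in the brain libraries and Enpp2 between 1 and 23, while Slc4a5 ranked between 504 and 11023.

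The members did not vary together among the brain libraries. Otx2 had 137158, 72375 and 33154 in batch 2, against 4879.6, 4649 and 4672 in batch 1. Prlr had 28242, 21086 and 14283 in batch 2, against 3927, 6713 and 3453 in batch 1. Kcne2 had 3161, 1804 and 1386 in batch 2, against 3535, 9422 and 3598 in batch 1. For these 3 genes the batches did not overlap, with Otx2 and Prlr higher in batch 2 and Kcne2 higher in batch 1. The other 7 members overlapped between batches. How many of all genes have batches that do not overlap was not counted, so these counts are descriptions.

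A limma fit to the 6 brain libraries alone, over 14640 genes that reached 10 in 3 or more of them, called 1 of 10 members higher in batch 2, where 0.485% of all genes were called higher, 0.0342% lower and 0.519% in either direction. That member was Otx2, with a log2 difference of 3.87 ± 0.54 (adjusted p 0.0363) and a ratio of batch means of 17.1. The Otx2 call was lost in 8 of 15 alternatives, with adjusted p up to 0.227, among them leaving out brain replicate 1 (0.122), 3 (0.129), 4 (0.174) or 5 (0.227). Prlr differed by 2.18 ± 0.43 (adjusted p 0.0949), Kl by -2.20 (0.424), Kcne2 by -1.31 (0.523) and Ttr by -1.21 (0.615), and none of them passed. Batch 2 brain libraries were also 47.7 to 58.1 M reads deep, against 11.6 to 16.9 M in batch 1, so batch and depth cannot be told apart.

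Brain replicate 2 bore on this comparison. It held the highest Ttr and Enpp2 values of all libraries (1000727 and 1200309.9), and the lowest brain value of Slc4a5 (57.9, against 5913 and 4801 in replicates 1 and 3 of its batch). Without it, the same fit called 4 members, Otx2 and Prlr (2.47, adjusted p 0.00837) higher and Kl (-3.05, 0.0123) and Slc4a5 (-2.05, 0.0274) lower in batch 2. The number of all genes called went to 2380 without it, beside 76 with it. Brain replicates 1 and 3, which then make up batch 1, were far more alike than any other 2 brain libraries (chi-square over degrees of freedom 10.1, which is above sampling noise, against 348 for the next closest pair). The 4 calls and the 2380 genes without replicate 2 rest on these 2 libraries as batch 1.

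**Figure D2:**
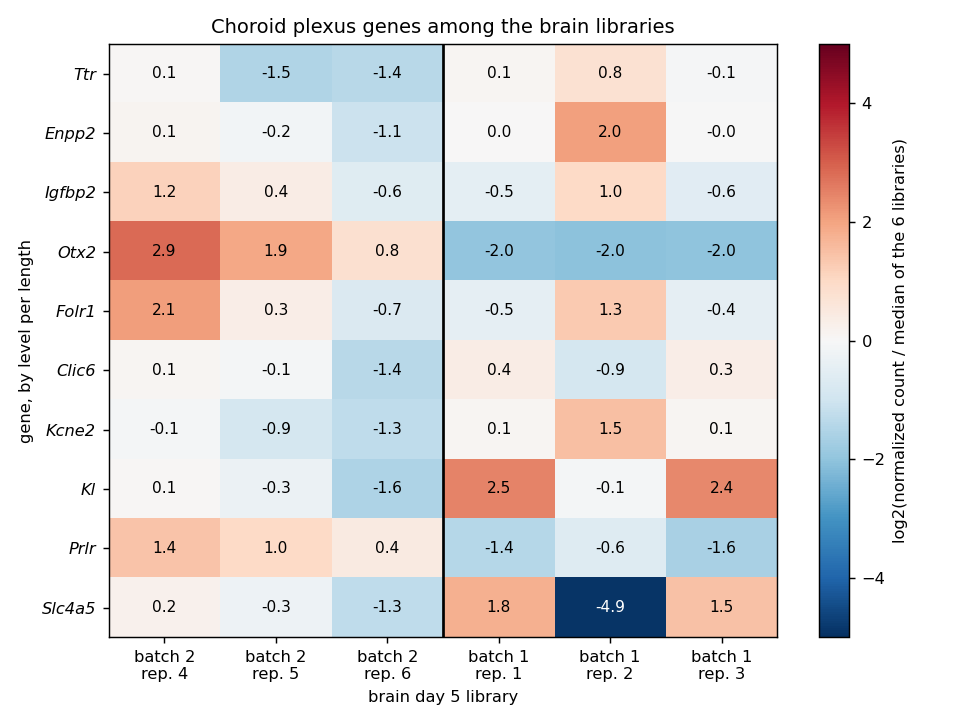
Log2 ratio of each member's normalized count to its median over the 6 brain libraries, with batch 2 replicates on the left and batch 1 replicates on the right. Otx2 and Prlr are high in batch 2, Kl is high in replicates 1 and 3, and Slc4a5 is far below its median in replicate 2.

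Transcript length moved with the values of replicate 2. This comparison was added after the values were seen. Over 12289 genes with a brain mean of at least 100, the median log2 difference of replicate 2 from the mean of the other 5 brain libraries was 0.96 for genes with up to 2000 bases of exon (1519 genes), 0.39 from there to 4000 (3693 genes), -0.60 to 6000 (3024 genes) and -1.49 above 6000 (4053 genes). Replicates 1 and 3 ran the other way, with -0.64 and -0.68 in the shortest class and 0.73 and 0.74 in the longest, while replicates 4 to 6 stayed between -0.16 and 0.34. Among the members, replicate 2 over the mean of replicates 1 and 3 was 1.66 for Ttr (1186 bases of exon), 2.64 for Kcne2 (1767), 2.91 for Igfbp2 (1847) and 3.38 for Folr1 (2297). It was 0.423 for Clic6 (3914), 0.973 for Otx2 (4221), 0.0108 for Slc4a5 (5804) and 0.173 for Kl (9328). Enpp2 (5779) and Prlr (15339), at 4.12 and 1.82, were long genes that were nonetheless higher in replicate 2 than in replicates 1 and 3. That ratio is not the measure used for all genes, since replicates 1 and 3 themselves ran the other way with length. Against the mean of the other 5 brain libraries, replicate 2 was higher for Enpp2 (log2 difference 2.27) and lower for Prlr (-0.62). The part of length in the members' results was not tested.

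**Figure D3:**
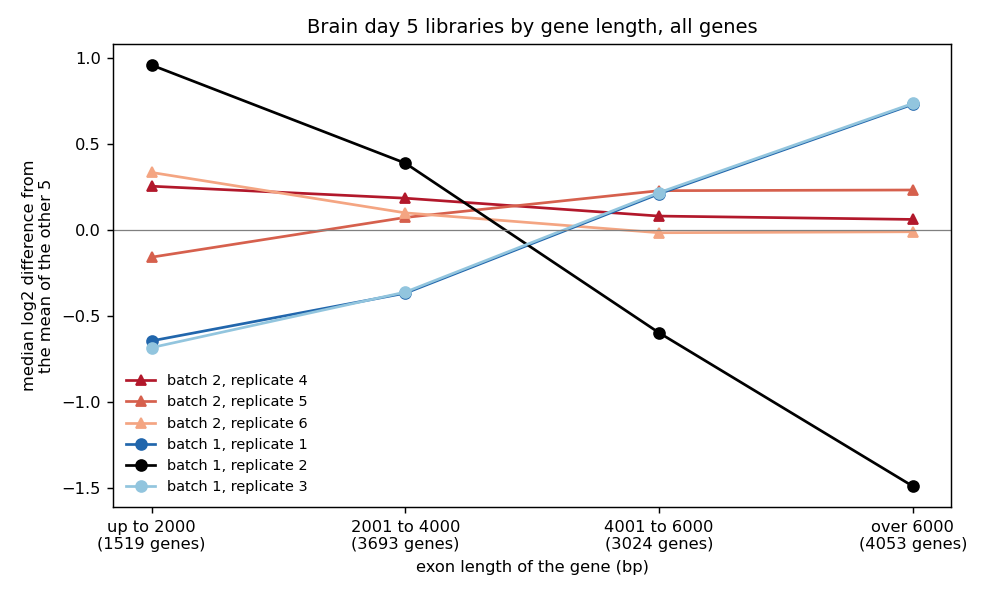
Median log2 difference of each brain library from the mean of the other 5, for genes grouped by exon length, batch 2 libraries first. The line of replicate 2 falls from 0.96 in the shortest class to -1.49 in the longest, and those of replicates 1 and 3 climb.

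Reads of each member per 1000 Ttr reads show how fixed the proportions were. Across brain libraries Kcne2 stayed within 5.13 to 9.42 reads per 1000 Ttr reads, a 1.83-fold span, and Enpp2 within 463 to 1263, a 2.73-fold span. Igfbp2 spanned 21.7 to 121, Folr1 9.61 to 58.3, Clic6 8.34 to 69.9 and Kl 3.90 to 38.5. Prlr ran from 6.05 to 101, a 16.8-fold span, and Otx2 from 4.65 to 348, a 75.0-fold span. Slc4a5 had the widest span, 162-fold, from 0.0579 to 9.36, with its lowest ratio in replicate 2. The ratio of Kcne2 to Ttr had the narrowest span of the 9.

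**Figure D4:**
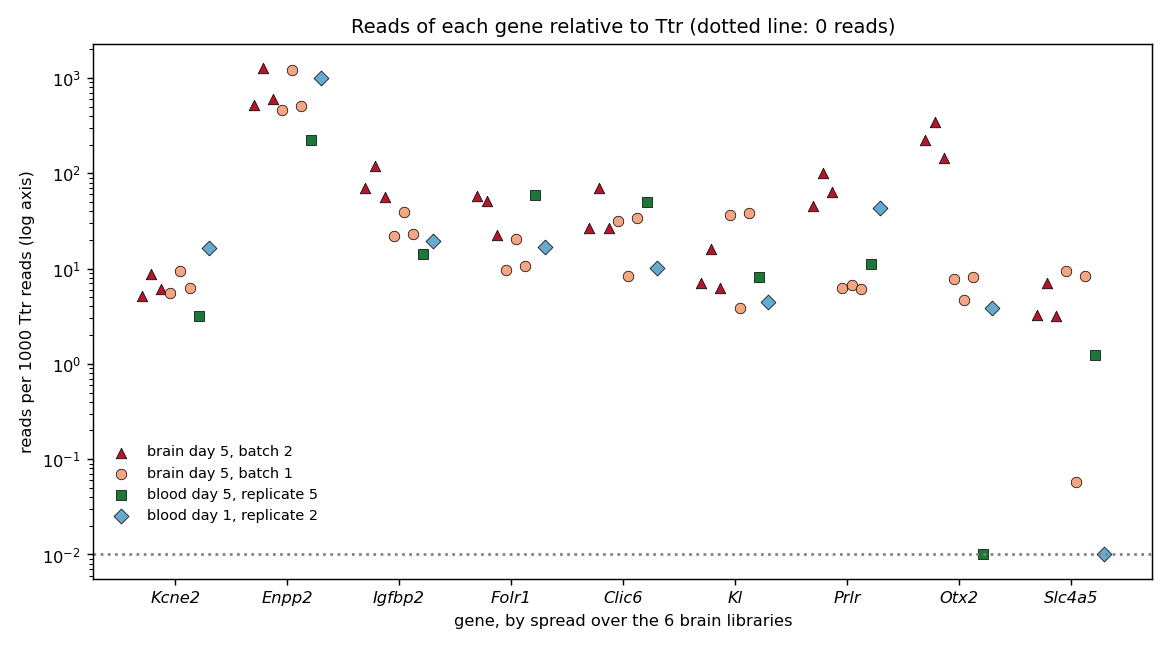
Reads of the other 9 members per 1000 Ttr reads, on a log scale, in the 6 brain libraries (triangles batch 2, circles batch 1), blood day 5 replicate 5 (squares) and blood day 1 replicate 2 (diamonds), with points on the dotted line at 0 reads. Kcne2 and Enpp2 form the narrowest bands in brain. Relative to Ttr, Otx2, Prlr, Folr1 and Igfbp2 are higher in all 3 batch 2 than in all 3 batch 1 brain libraries. Mean Ttr itself was lower in batch 2 (ratio of batch means 0.477), and normalized counts of Folr1 and Igfbp2 overlapped between batches. How many of all genes lie apart relative to Ttr was not counted.

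Outside the brain the members were unevenly spread. Blood day 5 replicate 5 held 7682 member reads with 9 of 10 members above 0, a summed CPM of 0.477% of the brain mean. Blood day 1 replicate 2 held 20687 member reads with 9 of 10 members above 0, or 3.29% of the brain mean. No other library outside the brain passed 0.189% of the brain mean. These libraries missed different members. Otx2 had 0 reads in blood day 5 replicate 5, where the lowest Otx2 to Ttr ratio of any brain library would give 26.01 reads. Slc4a5 had 0 reads in blood day 1 replicate 2, where its lowest brain ratio would give 0.565 reads and its highest 91.3. The absence of Slc4a5 there cannot be told from that lowest ratio. In blood day 1 replicate 2 Kcne2 stood at 16.5 reads per 1000 Ttr reads, outside the brain range, and Enpp2 at 1006, inside it.

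Other libraries held a few of the members. Prlr had 90 reads in blood day 1 replicate 5, which held no read of any other member. Igfbp2 had 360 reads in blood day 5 replicate 4, beside 162 of Ttr, 122 of Enpp2, 48 of Prlr, 19 of Clic6 and 6 of Folr1. Slc4a5 had 21, 2 and 10 reads in baseline replicates 1, 2 and 3, in which Ttr had none and Enpp2 4, 1 and 3 reads, whereas baseline replicates 4 and 5, of batch 2, held 300 and 353 Ttr reads and no Slc4a5 read.

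Between blood and baseline the number of members called depended on the test. In blood day 5 over baseline 2 of 10 members were called higher, where 19.6% of all genes were called higher, 11.4% lower and 31.1% in either direction. Of all calls there, 63.2% were higher with the deposited size factors and 76.0% with equal library totals. Prlr rose by 3.94 ± 1.23 (adjusted p 0.0169) and Igfbp2 by 3.64 ± 1.24 (adjusted p 0.028). The Prlr call was lost with a pseudocount of 5 (0.0925), in batch 2 alone (0.237) and with the closest libraries averaged (0.0816). The Igfbp2 call was lost in 11 alternatives, among them leaving out baseline replicate 1 (0.0746), 2 (0.0764) or 3 (0.0762) or blood day 5 replicate 2 (0.0548) or 4 (0.0587). The averaged libraries were baseline replicates 1 to 3 and brain replicates 1 and 3. Baseline replicates 1 to 3 were close to each other (chi-square over degrees of freedom 4.19 to 12.5). Between these and baseline replicates 4 or 5 it was 875 or more. The main model counts baseline replicates 1 to 3 as separate libraries, so p-values over baseline may be too small if they are not independent. In blood day 1 over baseline 1 of 10 was called higher, Prlr, by 5.30 ± 1.23 (adjusted p 0.00192), where 18.1% of all genes were called higher, 14.0% lower and 32.1% in either direction, and the call was lost in batch 2 alone (3.95, 0.143). In that comparison edgeR called 4 members, all higher, under either scaling, and DESeq2 called 9, of which 8 were higher. Of all genes, edgeR called 4795 with TMM scaling and 4891 with the deposited size factors, and DESeq2 5851, beside 4905 in limma. Without blood day 1 replicate 5 the limma count of members was 3, with Enpp2 (4.30, 0.0362) and Igfbp2 (2.998, 0.0494) added. In blood day 5 over blood day 1 limma called 0 of 10, where 0.0982% of all genes were called higher, 0.00655% lower and 0.105% in either direction. There, 0 members had an unadjusted p under 0.05. In the same comparison edgeR also called 0 members, and DESeq2 called 1, Enpp2, lower in blood day 5 (adjusted p 0.049). Of all genes, DESeq2 called 133 there, beside 16 in limma. Ttr, Enpp2, Folr1 and Igfbp2 differed from baseline in opposite directions by batch in blood day 1. In that order the differences were -3.69, -2.10, -2.06 and -2.59 in batch 2, and 8.12, 7.00, 3.71 and 6.05 in batch 1. Kcne2 (-0.40 in batch 2 and 4.04 in batch 1) and Slc4a5 (0.51 and -3.88) changed sign between batches as well.

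Genes known to work with each member were described in brain cells over blood day 5. Their lists were drawn up by name, with earlier results of these data known. The medians below are log2 differences and stand beside 0.47 for all genes tested, of which 33.6% were called higher. Some list genes passed the filter on low values only through brain libraries, which favours a higher value there, so the counts and medians of the lists are descriptions and support nothing. These were 5 of 8 genes tested for Ttr, 3 of 9 for Enpp2, 3 of 10 for Igfbp2 (Igf2, Igfbp3 and Igfbp5), 1 of 3 for Kl (Fgfr3), 1 of 7 for Prlr (Prl), 1 of 5 for Folr1 (Folr2), 3 of 7 for Kcne2 and 5 of 7 for Otx2. Of 8 genes of thyroid hormone and retinol transport, the cargo of Ttr, 8 rose (median 8.09). They included Stra6, the receptor for retinol-binding protein, at 26959 ± 34771 in brain cells against 186 ± 197 in blood day 5 cells (log2 difference 8.47), and Dio2, which activates thyroxine (6.60, lost in 4 of 40 alternatives). Of 9 receptors and phosphatases of lysophosphatidic acid, the product of Enpp2, 6 rose and 3 were not called (median 5.89). The phosphatases Plpp3 (5.89), Plpp1 (6.50) and Plpp2 (2.22) and the receptor Lpar1 (8.60) rose, and the receptors Lpar6 (0.00) and Lpar5 (-0.39) were not called.

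Of 10 insulin-like growth factor genes around Igfbp2, 6 rose (median 5.69). Igf2, a growth factor of choroid plexus and meninges that did not reach 10 in any library outside brain, had 15092 ± 13350 in brain cells against 1.24 ± 3.04 in blood day 5 cells (12.69). The binding proteins Igfbp5 (13.63), Igfbp7 (7.94) and Igfbp3 (8.64) rose as well, while Igfbp4 (0.90) and the insulin receptor Insr (1.42) were not called. Of the FGF receptors and klotho relatives 3 of 6 genes were tested and 3 rose, the receptors Fgfr2 (7.86), Fgfr3 (5.80) and Fgfr1 (5.49).

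The prolactin list was mixed, with 4 of 7 tested genes higher, 2 lower and a median of 1.04. The growth hormone receptor Ghr rose by 7.12 and the feedback inhibitor Socs3 by 1.04 (lost in 5 of 40 alternatives), and the signal carriers Jak2 (-1.53) and Stat5b (-1.72) fell. The pituitary hormones Gh (5.47) and Prl (5.52) were called higher from a few libraries. Gh had 35129, 117586 and 420 in brain batch 2, against 0, 194 and 0 in batch 1, and its call was lost in 11 of 39 alternatives. Prl had 41386, 71706 and 455 in brain batch 2 and 0 in all 3 libraries of batch 1. The same batch 2 libraries held the highest Otx2 values, and the part of these hormone transcripts in the members' results was not tested.

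Folate transport beside Folr1 was raised in 3 of 5 genes (median 2.02). The proton-coupled folate transporter Slc46a1 (6.28), the reduced folate carrier Slc19a1 (1.74) and Folr2 (7.34), a folate receptor of macrophages, rose. Of 7 tested potassium channel partners of Kcne2, 5 rose and 1 fell (median 6.76). Kcne4, another small subunit, had 33029 ± 35412 in brain cells and no read in any blood day 5 library (14.06), and it was also called higher in brain batch 2 over batch 1 (3.42, adjusted p 0.037). Kcnh2 (8.13), Hcn2 (6.76) and Slc5a3, a myo-inositol transporter known to act with Kcne2 channel complexes (6.17), rose, and the lymphocyte channel Kcna3 fell by 3.62 on the log2 scale. Of 7 genes discussed with Otx2, 7 rose (median 8.46), among them Sox2 (10.05), Ppp1r1b (10.21), Rgs4 (8.46) and Tgm2 (2.01, lost in 9 of 40 alternatives).

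Genes of the choroid plexus epithelium beyond the members were described in the same way. Those that passed the filter only through brain libraries were 11 of 30 transport genes, 8 of 11 transcription factors, 13 of 26 secreted and surface genes and 5 of 9 junction genes. Of 30 transport genes 25 rose and 1 fell (median 6.58). Slc22a8, an organic anion transporter of the choroid plexus, had 14793 ± 16333 in brain cells against 10.3 ± 25.3 in blood day 5 cells (12.37), and Kcnj13, an apical potassium channel, had 9901 ± 9226 against 18.8 ± 41.2 (10.36). The sodium pump subunit Atp1b2 (7.48) and carbonic anhydrase Car2 (1.62) rose. Of 11 transcription factors 10 rose (median 8.46), among them Lmx1a (9.19) and Msx1 (10.79) of the choroid plexus lineage, Foxj1 of ciliated cells (11.17) and Zic1 (8.91), and of these 4 only Msx1 reached 10 in 5 libraries outside brain, while Ets2 (0.28) was not called. Of 26 tested secreted and surface genes 24 rose (median 8.88), such as transferrin (Trf, 4.64) and Krt18 (6.88), while clusterin (Clu, 2.28, adjusted p 0.152) and coagulation factor F5 (0.67) were not called. Of 9 junction genes 7 rose (median 8.95), among them Cldn2 (11.16), Cldn3 (9.29) and Ocln (10.18), the claudins and occludin of epithelial barriers, all 3 of which passed the filter only through brain, and Cldn5 (8.95), an endothelial claudin, whereas the epithelial adhesion genes Cdh1 (2.33) and Epcam (0.33) were not called.

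Markers of other brain cells rose beside them, and 8 of 12 ependymal, 5 of 10 meningeal, 2 of 9 oligodendrocyte, 3 of 9 astrocyte and 1 of 10 microglia genes passed the filter only through brain. All 12 genes of ependymal cilia, the neighbours of the choroid plexus along the ventricle, rose (median 9.46), with Tmem212 (11.04), Spag6l (10.96), Dynlrb2 (10.56) and Rsph1 (8.91) the most abundant. Their summed level was 0.105 to 0.332% of a brain library, 0.000229 to 0.000840% of a blood day 5 library, 0.000194 to 0.00111% of a blood day 1 library and 0.000164 to 0.00126% of a baseline library. Hydin had no read in blood day 5, Ccdc153, Dynlrb2 and Dnah5 none in blood day 1, and 5 of the 12 none in baseline. Meningeal and stromal fibroblast genes rose in 10 of 10, at 0.294 to 1.08% of a brain library, 0.000206 to 0.00192% of a blood day 5 library, 0.000102 to 0.0128% of a blood day 1 library and 9.11e-05 to 0.000401% of a baseline library. Oligodendrocyte genes rose in 9 of 9, at 1.03 to 1.65% of a brain library, 0.0679 to 0.183% in blood day 5, 0.0491 to 0.219% in blood day 1 and 0.0159 to 0.0443% in baseline. Astrocyte genes rose in 9 of 9, at 0.105 to 0.258% in brain, 0.00204 to 0.00785% in blood day 5, 0.000843 to 0.00499% in blood day 1 and 0.00869 to 0.0427% in baseline. Microglia genes rose in 9 of 10, at 0.904 to 2.32% in brain, 0.0754 to 0.108% in blood day 5, 0.0636 to 0.131% in blood day 1 and 0.0112 to 0.0299% in baseline. Of these 4 lists, Slc47a1, Opalin, Sox9 and Sall1 had no read in baseline, and each gene had reads in some library of the other groups.

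Vessel, macrophage and neuron lists moved less evenly. Mural genes rose in 7 of 8 (0.0369 to 0.172% in brain and 0.00839 to 0.0116% in blood day 5) and endothelial genes in 6 of 7 (0.0290 to 0.301% and 0.0105 to 0.0243%). Macrophage genes rose in 4 of 7 (1.27 to 3.84% and 0.146 to 0.216%) and neuronal genes in 3 of 7, beside 33.6% of all genes. The summed level of the neuronal genes was 0.00125 to 0.00691% in brain and 0.0139 to 0.140% in blood day 5. That sum does not stand for the list as a whole. Over all libraries outside brain the highest value was 184002 for Nrgn and 7013 for Gad1. It was 529 for Snap25, 254 for Syt1, 69.8 for Slc17a7, 61.9 for Rbfox3 and 40.7 for Camk2a. In each of the mural, endothelial, macrophage and neuronal lists 1 gene fell. Of their genes 4 mural, 3 endothelial, 3 neuronal and 0 macrophage genes passed the filter only through brain. Platelet genes fell in 7 of 7 and ILC2 genes in 7 of 9 tested (median -4.44). The part of each of these cell types in the members' results was not tested. With edgeR and TMM scaling, the count of risen genes differed from that above by 1 or more in 6 of the lists, with 7 of 8 for Ttr, 9 of 11 for transcription factors, 3 of 7 for prolactin, 6 of 7 for Otx2, 7 of 10 for insulin-like growth factors and 1 of 7 for neurons, and 2 of the 30 transport genes fell.

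**Figure D5:**
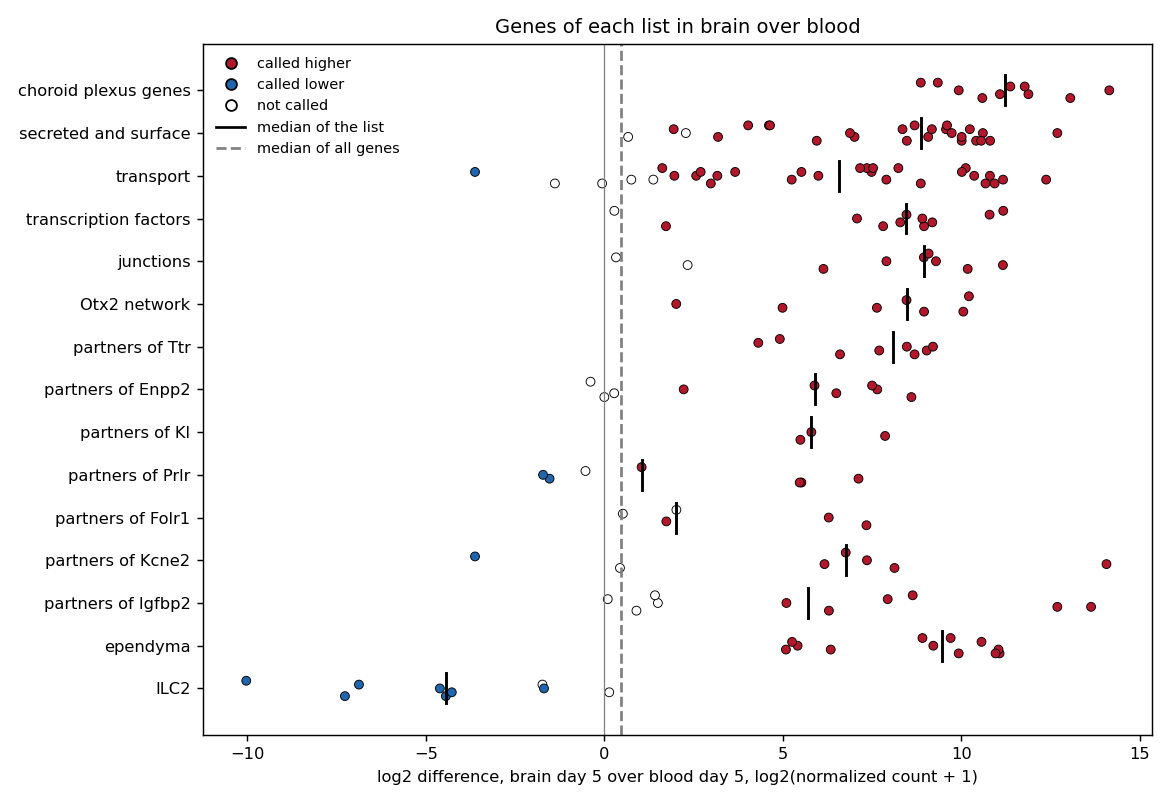
Log2 differences of brain over blood day 5 for each tested gene, with the members on top, the choroid plexus and partner lists under them and ependymal and ILC2 markers at the bottom. Filled points were called, black bars are list medians and the dashed line is the median of all genes tested, 0.47. The member points lie between 8.86 and 14.14, and most ILC2 points lie below 0.

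Likeness to the members was ranked over 12304 genes with a brain mean of at least 100, by Pearson r of log2(value + 1) with the mean of the 10 members. Over all 23 libraries the closest genes were Igsf11 (0.984), Trpm3 (0.980), Pnmal2 (0.978), Steap1 (0.976), Slc22a17 (0.975), Cldn11 (0.974), Sox9 (0.974), Rassf9 (0.973), Serinc2 (0.973) and Vat1l (0.972). Trpm3, a cation channel, Steap1 and Vat1l are also on the choroid plexus lists. Cldn11 was placed on the oligodendrocyte list and Sox9 on the astrocyte list, which does not mean that only those cells make them. The 23 libraries fall into brain libraries and the rest, and r over all of them includes that step. Over the 6 brain libraries alone the closest were different genes, led by Bud13 (0.995), Emp2 (0.988) and Ezr (0.985, the apical membrane linker ezrin), with Wdr86 (0.960) the choroid plexus list gene among the first 10. Each member against the mean of the other 9 gave r between 0.81 (Slc4a5) and 0.98 (Kcne2) over 23 libraries, and between -0.15 (Slc4a5) and 0.64 (Clic6) over the 6 brain libraries.

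Kcne2 and Clic6 lie 187606 bases apart on chromosome 16, and the annotation (GENCODE M21, mm10) places 4 protein-coding genes between them. Of these, Smim11 had a mean normalized count of 635 in brain cells, 513 in blood day 5, 664 in blood day 1 and 1071 in baseline cells, and Rcan1, an inhibitor of calcineurin, had 1922, 489, 666 and 406. Rcan1 rose in brain cells over blood day 5 by 1.95 (adjusted p 1.98e-06), beside 11.08 for Kcne2 and 11.37 for Clic6 on either side. Beyond Clic6, Runx1, a transcription factor of blood cells, fell by 1.36 on the log2 scale (adjusted p 0.00634).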

How the data were processed

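RNA-seq was done on 23 libraries of cells labelled as ILC2s, with random priming of poly-A RNA and paired reads of 150 bp, per the labels' protocols. The submitters' processing notes name fastp, HISAT2 2.0.5 and the mm10 build. The read counter, its annotation, strand setting and any gene filter are not stated there. The authors deposited normalized counts (a signal unit), that is, read counts over a library's size factor. A whole number of reads came out of 100% of the values within a tolerance of 0.1 read (largest deviation 0.00103 read). A library held between 11.6 M and 58.1 M reads (M, 1e6).

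The 10 members and all gene lists were chosen with earlier results of these data known. Tests used limma 3.58.1 (R 4.3.3, trend and robust fitting, two-sided) on log2(value + 1), with the 4 groups and the batch in 1 model of all 23 libraries. The 15268 genes that reached 10 in 5 or more libraries were tested, and p-values were Benjamini-Hochberg adjusted over all of them (threshold 0.05). The recovered reads were tested with edgeR 4.0.16 and DESeq2 1.42.0 as alternatives. In brain over blood day 5, limma called 7306 genes, edgeR with the deposited size factors 6873 and DESeq2 7438. The limma script was checked on simulated data. Other alternatives changed the pseudocount, filter, scaling, weights, batch term and libraries.

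Without a read in a group, 3 reads per library were set as a floor, and a fold is then a lower bound. Intervals are exact 95% intervals. Both cover only counting error, because copies made by PCR are not separate molecules. Exon lengths and coordinates came from GENCODE M21 and promoters from RefSeq (GRCm38.p6). In each partner, epithelial and ependymal list the named genes were up to 4 with the highest brain mean among those called higher in brain over blood day 5 and up to 2 among the others. Some genes that this rule names are not reported here.

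Replicate numbers were not used to pair libraries in the main model. Over 33 pairs of same-numbered libraries, the correlation of deviations from the group means was -0.104 to 0.189, with 2 over 0.1. Both of these were between brain day 5 and blood day 5, in replicates 2 (0.189) and 3 (0.117). Such correlations cannot decide whether same-numbered libraries came from the same animal.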

Additional observations from a re-analysis of the deposited data

Results flagged for a closer look

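Within the groups of blood and baseline libraries, 9 values out of 26 gene and group sets with any spread stood apart from the rest of their group by Dixon's test on log2(value + 1). Chance flags about 1 set in 20, and a set in which a single library holds reads is always picked.

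Of these, 3 were in blood day 5 replicate 5. Kl was at 21.1 there, Kcne2 at 8.26 and Slc4a5 at 3.21, and the other 5 blood day 5 libraries held no read of these 3 genes. In blood day 1 replicate 2, Otx2 was at 117.65, against 0 in the other 5 libraries, and Kcne2 at 498.5, against 0 to 7.85. Slc4a5 was at 1.86 in blood day 1 replicate 4 and at 0 in the other blood day 1 libraries. Prlr was at 0 in blood day 5 replicate 6, below the 18.2 to 30.0 of the other blood day 5 libraries. In baseline, Kl was at 2.95 in replicate 5 and Kcne2 at 3.39 in replicate 4, each with 0 in the other 4 libraries. No brain library was picked for any member.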

How the results depend on the processing

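The count of members higher in brain cells was 10 over each of blood day 5, blood day 1 and baseline when any 1 library was left out (10 to 10) and in 15 of 17 other alternatives. In batch 2 libraries only it was 6 in each, with Otx2, Kl, Kcne2 and Slc4a5 not tested there. In batch 1 libraries only 7 of 7 tested members were called. The alternatives chosen after seeing the data, without the 4 libraries that stood apart and without the 2 blood libraries richest in members, both kept 10 in each comparison. In all these counts Otx2, Kl, Kcne2 and Slc4a5, which passed the filter on low values only through brain libraries, are no support.

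Counts between blood and baseline were less stable, and the cause was not tested. In blood day 5 over baseline the count was 2, and it was 0 with a pseudocount of 5, in batch 2 libraries only and with the closest libraries averaged, 1 with edgeR under either scaling, 6 (5 higher) with library quality weights, and 1 to 2 with 1 library left out. In blood day 1 over baseline it was 1, and it was 4 with edgeR under either scaling, 9 (8 higher) with DESeq2, 4 (3 higher) with weights, 4 in batch 1 and 0 in batch 2 libraries only, and 1 to 3 with 1 library left out. In blood day 5 over blood day 1 it was 0, and 1 with DESeq2.

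In brain batch 2 over batch 1 the count was 1. It was 0 without a filter, with equal library totals and with edgeR under either scaling. It was 3 with DESeq2, 6 with weights and 0 to 4 with 1 library left out. The number of all genes called moved as well, from 76 in the main fit to 47 without a filter, 698 with DESeq2 and 5735 with weights. It was 2 without brain replicate 4 and 2380 without brain replicate 2, so these member counts are descriptions. Slc4a5 changed sign there, at 0.12 in all 6 libraries, -1.73 with weights (adjusted p 0.022) and -2.05 (adjusted p 0.0274) without brain replicate 2, with a range of -2.05 to 1.27 when 1 library was left out. The members' share of a brain library was 0.497% without Ttr and Enpp2, and 3.54 to 4.82% with 1 library left out.

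With a replicate block in place of batch, the member counts were 10, 10 and 10 in brain over blood day 5, blood day 1 and baseline, 2 in blood day 5 and 1 in blood day 1 over baseline and 0 in blood day 5 over blood day 1, as without it. In that last comparison 10 of all genes were called with the block, beside 16.

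Outside the brain most members had few reads, at depths of 12.1 M to 44.0 M. Of 2493 member values set against an alternative, 71 changed sign where neither value was called.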
